A study of Solanum lycopersicum with 9 samples.

Results

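The genes of the microtubule and actin cytoskeleton were followed in imbibed tomato seeds. They were taken from the expression table by their descriptions, as all genes whose description names tubulin, kinesin, microtubule, profilin, formin-like, villin, myosin, or actin as a word of its own or before a hyphen. Descriptions of cell division were to be left out, which removed 0 genes. The rule gave 315 of the 40229 genes in the table. Of these, 187 had a mean of at least 1 FPKM over the 9 libraries and were tested, among 18346 tested genes in all. FPKM scales sequenced fragments to transcript length and to the mapped fragments of a library, so levels can be set side by side between genes. Another 42 members were listed at 0 in every library, and the other 86 were too low to test, with no single value above 2.58 FPKM.

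The study set seeds of 2 knockout genotypes beside wild type (WT), all taken at 6 h of imbibition, the uptake of water by the dry seed. There were 3 libraries of WT seeds, 3 of seeds with SlLBD40 knocked out and 3 of seeds with SlWRKY37 knocked out, and the labels give no other allele or agent. LBD40 is a plant transcription factor with a LOB domain, and WRKY37 is one with a WRKY domain. The labels do not say how many edited lines each knockout stands for, or whether the seeds of each library were grown or collected separately, and p-values therefore reflect only how far these libraries vary, which may be technical.

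Microtubules are tubes of paired alpha- and beta-tubulin that start from ring complexes holding gamma-tubulin, and in plant cells they guide where cellulose is laid down and build the spindle and the new cell plate. Actin filaments carry the traffic driven by myosins; profilin holds the free subunits, formins and the Arp2/3 complex start filaments, villins bundle them and actin-depolymerizing factors cut them. In tomato seeds the beta-tubulin protein is known to build up during germination, before the root tip emerges.

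The libraries summed to 856291 to 918103 FPKM, with 23206 to 24507 genes above 0. The gene described as LOB domain-containing protein 40, on chromosome 5, stood at 20.4, 5.6 and 11.8 FPKM in WT and at 42.9, 43.9 and 36.1 FPKM in the libraries labelled LBD40 knockout, so it was not lower there. The gene described as WRKY transcription factor 37, on chromosome 1, stood at 0.28, 0.7 and 0.92 FPKM in WT and at 0.23, 0 and 0 FPKM in the WRKY37 knockout. Gene IDs are shortened in the table, and it was not settled that these rows are the edited genes. Replicate 3 of the WRKY37 knockout stood apart. Transcripts of seed reserves (oleosins and storage proteins, 31 of 86 listed genes tested) summed to 14799 FPKM in it, to 6582 and 7328 FPKM in the other two, to 15449 to 19210 FPKM in WT and to 5982 to 6310 FPKM in the LBD40 knockout. The median SD over the tested members on the log2 scale was 0.26 in the WRKY37 knockout, against 0.14 in both other groups. Because whole seeds were extracted, fewer cells of a type and less RNA per cell cannot be told apart.

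Levels of the tested members ran from a mean of 1.04 to 1176 FPKM, with a median of 9.92 FPKM. In all, 93 members had a mean of at least 10 FPKM and 14 of at least 100 FPKM. The most abundant were an actin gene on chromosome 3 and an alpha-tubulin gene on chromosome 8. Together the members came to 6432 to 6814 FPKM in WT, 7303 to 7863 FPKM in the LBD40 knockout and 6506 to 7732 FPKM in the WRKY37 knockout.

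In the LBD40 knockout 38 members rose and 29 fell against WT, while 120 were not called. Calls come from limma on log2(FPKM + 1), fitted to all 18346 genes, at an adjusted p (Benjamini-Hochberg over all of them) below 0.05. Of the tested members 35.8% were called, with 20.3% higher and 15.5% lower. Over all tested genes 37.2% were called, 18.0% higher and 19.2% lower, so the share of members that changed is near the background and is not in itself a result about these genes. The median log2 change was 0.14 over the members and -0.02 over all genes. A called change of at least 1 on the log2 scale was reached by 13 of the 187 tested members (11 higher, 2 lower), 6.95% beside 10.9% of all tested genes. Of the 38 that rose, 1 reached the minimum mean only through the LBD40 libraries, and the same gene is among those higher between the knockouts. The counts moved with single libraries, in the members as over all genes. Without WT replicate 1 they were 23 higher and 17 lower, with 26.3% of all genes called. Without WT replicate 2 or 3, 18 and 17 members were lower, with 26.7% and 28.3% of all genes called. Leaving out LBD40 replicate 1 or 2 gave 13 and 17 lower, with about 25% of all genes called each time. Without WRKY37 knockout replicate 3, which enters the estimate of spread, 41.7% of the members (45 higher and 33 lower) and 41.8% of all genes were called.

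In the WRKY37 knockout 8 members rose and 4 fell, 6.42% of those tested, beside 9.38% of all genes (4.82% higher and 4.56% lower). The median log2 change was 0.10 over the members and 0.02 over all genes. Between the knockouts 21 members were higher and 22 lower in the LBD40 knockout, 23.0% of those tested, beside 27.0% of all genes (12.9% higher and 14.1% lower). Without LBD40 replicate 1 or 2 there were 10 members higher each time and 5 and 6 lower, with 12.9% and 14.2% of all genes called. Without LBD40 replicate 3 or WRKY37 replicate 3, 13 members were higher each time, and without WRKY37 replicate 2, 11 were lower, with 23.7%, 26.6% and 17.9% of all genes called. In total 73 members, 39% of those tested, were called against WT in at least 1 knockout, beside 40.5% of all genes. Another 104, or 55.6%, were called in none of the 3 comparisons, beside 53.9% of all genes.

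**Figure D1:**
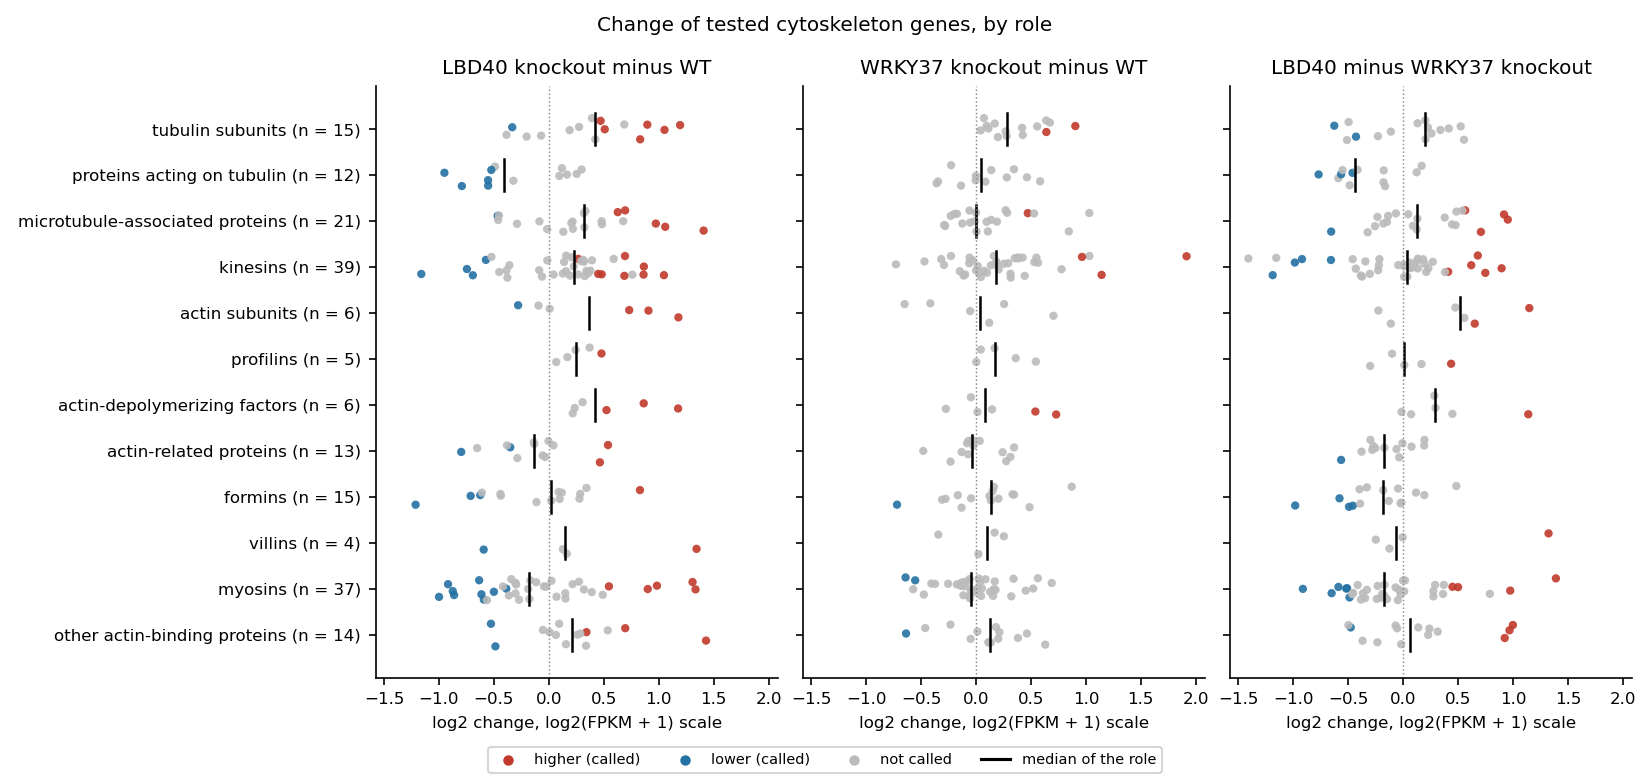
Log2 change on the log2(FPKM + 1) scale (x axis) of each of the 187 tested cytoskeleton genes, in rows by role, for the LBD40 knockout against WT (left), the WRKY37 knockout against WT (middle) and the LBD40 against the WRKY37 knockout (right). Each point is a gene, red where called higher, blue where called lower and grey where not called, and the black bar is the median of the role. Tubulin subunits lie mostly to the right and the proteins that act on tubulin to the left in the LBD40 panel.

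Tubulin subunits were the group with most RNA. In the LBD40 knockout 6 of the 15 tested subunit genes rose, 1 fell and 8 were not called, of 23 listed, with a median log2 change of 0.42. Called were 46.7% of the tested subunit genes, beside 37.2% of all genes. Without WT replicate 1, 3 of them rose. The most abundant, the alpha chain gene on chromosome 8, stood at 882, 966 and 1139.6 FPKM in WT, 1387, 1471 and 1371 FPKM in the LBD40 knockout and 1279, 1135 and 953 FPKM in the WRKY37 knockout. All LBD40 libraries were above all WT libraries, while the WRKY37 libraries overlapped WT. It rose 1.42-fold in the LBD40 knockout (log2 change 0.51, SE 0.13, adjusted p 0.0153). That call ended without WT replicate 1 (log2 change 0.43, adjusted p 0.0587) or LBD40 replicate 2 (0.48, 0.0577). The second alpha chain gene, on chromosome 4, was not called, at 366, 471 and 398 FPKM in WT and 505, 559 and 586 FPKM in the LBD40 knockout.

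Among the beta subunits, the gene described as beta-tubulin on chromosome 4 stood at 68.3, 80.2 and 73.8 FPKM in WT, 135, 141 and 139 FPKM in the LBD40 knockout and 125, 132 and 93.9 FPKM in the WRKY37 knockout. The 3 groups did not overlap, with the LBD40 knockout highest and WRKY37 knockout replicate 3 nearest to WT. It rose 1.87-fold in the LBD40 knockout (log2 change 0.9, SE 0.13, adjusted p 0.00109) and 1.58-fold in the WRKY37 knockout (log2 change 0.64, SE 0.13, adjusted p 0.015). The second of these calls ended without WT replicate 1 (adjusted p 0.066) or WT replicate 3 (adjusted p 0.0523). The beta chain gene that comes first of those on chromosome 10 (copy 1; copies are numbered in table order and are not official names) went from 119.7, 139 and 160.4 FPKM in WT to 236, 279.6 and 229.7 FPKM in the LBD40 knockout (log2 change 0.83, SE 0.21, adjusted p 0.0116). A low gene, copy 1 on chromosome 3, went from 1.99, 3.23 and 2.61 FPKM to 6.03, 7.54 and 8.12 FPKM (log2 change 1.19, SE 0.21, adjusted p 0.00253), the largest fold among the called subunits at 2.77-fold.

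Not every beta chain gene moved up. Copy 2 on chromosome 6 fell in the LBD40 knockout, from 96.2, 96.7 and 86.2 FPKM in WT to 67, 72.7 and 81.6 FPKM (log2 change -0.33, SE 0.12, adjusted p 0.0452), a small difference whose call ended when any WT library, or LBD40 replicate 1 or 2, was left out (adjusted p 0.0584 to 0.155). Copy 3 on chromosome 10 was called in the WRKY37 knockout only, where it stood at 13.4, 19.1 and 12.6 FPKM against 7.26, 8.11 and 6.94 FPKM in WT (log2 change 0.9, SE 0.19, adjusted p 0.0153). Its call ended without WT replicate 1 or 3 (adjusted p 0.0576 and 0.0581), and between the knockouts it was not called (log2 change -0.51, SE 0.19, adjusted p 0.067). Tubulin genes are a family of near-identical copies, and how fragments were shared between copies is not given in the sources used here, so the values of single copies are less certain than their sums.

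Summed over the genes of a kind, alpha-tubulin stood at 1258, 1447 and 1548 FPKM in WT, 1904, 2044 and 1969.7 FPKM in the LBD40 knockout and 1846, 1670.1 and 1325 FPKM in the WRKY37 knockout. Beta-tubulin stood at 559, 641 and 629.9 FPKM in WT, 821, 888 and 856 FPKM in the LBD40 knockout and 802, 886 and 635 FPKM in the WRKY37 knockout. For both kinds every LBD40 library was above every WT library, and WRKY37 replicates 1 and 2 were above WT while replicate 3 lay within the WT range. The ratio of the sums, alpha over beta, was 2.25, 2.26 and 2.46 in WT and 2.32, 2.3 and 2.3 in the LBD40 knockout, so both kinds were higher to about the same degree there. It was 2.3, 1.89 and 2.09 in the WRKY37 knockout. The alpha chain gene on chromosome 8 made up 66.7% to 73.6% of the alpha sum over the 9 libraries. Beside these sums, seed reserve transcripts were lowest in the same libraries in which tubulin was highest; their part in the result was not tested.

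**Figure D2:**
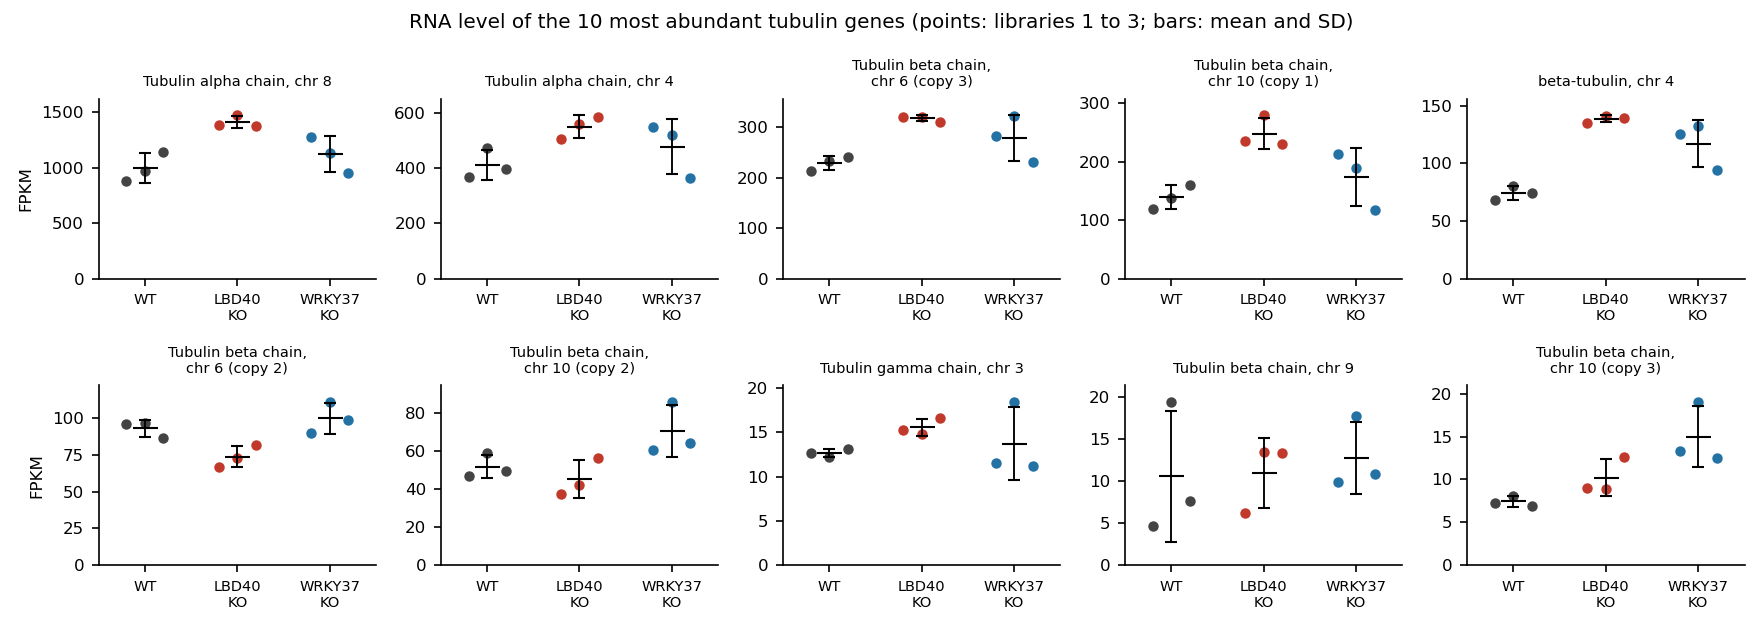
RNA level in FPKM (y axis, linear from 0) of the 10 tubulin subunit genes with the highest mean, 1 panel a gene, in WT, the LBD40 knockout and the WRKY37 knockout. Points are libraries 1 to 3 from left to right, and bars give the mean and SD (n = 3). The alpha chain on chromosome 8 and beta-tubulin on chromosome 4 are higher in all LBD40 libraries than in any WT library, and beta chain copy 2 on chromosome 6 is lower.

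Proteins that act on tubulin went the other way in the LBD40 knockout, where 0 of 12 tested genes rose and 5 fell, of 13 listed, with a median log2 change of -0.41. With 5 of 12 the called share was 41.7%, all lower, beside 19.2% lower over all genes. Without WT replicate 1 or any 1 of the LBD40 libraries 2 fell, and without WT replicate 2 or 3, 3 fell. Tubulin-folding cofactor B on chromosome 3, which takes part in folding alpha-tubulin, stood at 21.3, 20 and 26.5 FPKM in WT, 9.99, 10 and 13.7 FPKM in the LBD40 knockout and 19.2, 20.9 and 12.8 FPKM in the WRKY37 knockout. The LBD40 libraries were all below WT, and in the WRKY37 knockout replicate 3 was low and replicates 1 and 2 were within or beside the WT range. It fell in the LBD40 knockout, where WT was 2.01 times higher (log2 change -0.95, SE 0.20, adjusted p 0.0056).

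The other 4 genes that fell encode components of the gamma-tubulin ring complex, from which microtubules start. Component 6 on chromosome 11 stood at 7.93, 9.83 and 7.63 FPKM in WT, 4.69, 4.11 and 4.53 FPKM in the LBD40 knockout and 5.92, 8.55 and 6.88 FPKM in the WRKY37 knockout (log2 change -0.79, SE 0.16, adjusted p 0.00526 for LBD40 against WT). The component on chromosome 4 went from 7.69, 7.48 and 6.58 FPKM in WT to 4.62, 4.76 and 4.47 FPKM (log2 change -0.55, SE 0.16, adjusted p 0.0243), a call that ended without WT replicate 1 or 2 or any 1 LBD40 library (adjusted p 0.0613 to 0.0814). Summed over the complex, WT stood at 37.5, 39.4 and 36.7 FPKM, the LBD40 knockout at 22.6, 25.5 and 25.1 FPKM and the WRKY37 knockout at 31.2, 42.6 and 30.6 FPKM. The LBD40 libraries lay below all others. The gamma-tubulin chain itself, on chromosome 3, was not called, at 12.7, 12.2 and 13.2 FPKM in WT and 15.2, 14.8 and 16.7 FPKM in the LBD40 knockout. Among genes not called, tubulin-specific chaperone A on chromosome 1 had the highest level, with 77.7 ± 11.9 FPKM in WT and 92.2 ± 5.76 FPKM in the LBD40 knockout (mean ± SD, n = 3).

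Of the microtubule-associated proteins 21 of 30 listed genes were tested, and in the LBD40 knockout 5 rose and 1 fell (median log2 change 0.32). The called share was 28.6%, beside 37.2% of all genes. The 5 became 2 without LBD40 replicate 1, 3 without LBD40 replicate 2 or any 1 WT library and 8 without WRKY37 replicate 3, and the 1 became 3 without WRKY37 replicate 2 or 3. A gene described only as microtubule-associated protein, on chromosome 10, stood at 5.44, 5.43 and 10.8 FPKM in WT, 23.4, 15.4 and 22 FPKM in the LBD40 knockout and 18.5, 19.8 and 9.32 FPKM in the WRKY37 knockout. It rose 2.8-fold in the LBD40 knockout (log2 change 1.41, SE 0.31, adjusted p 0.00735), and WRKY37 replicate 3 lay within the WT range. A gene of the same description on chromosome 7 showed the same order, at 11.6, 8.09 and 11.5 FPKM in WT, 23.9, 19.7 and 20.1 FPKM in the LBD40 knockout and 25.5, 22.7 and 12.2 FPKM in the WRKY37 knockout (log2 change 0.97, SE 0.25, adjusted p 0.0126 for LBD40).

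Both genes described as RP/EB family member 1C, an end-binding protein that tracks the growing end of microtubules, were low. The one on chromosome 3 stood at 0.34, 0.53 and 0.49 FPKM in WT, 2.85, 1.63 and 1.73 FPKM in the LBD40 knockout and 0.63, 1.15 and 0.09 FPKM in the WRKY37 knockout. The mean of the 6 libraries outside the LBD40 knockout was 0.538 FPKM, so it reached the minimum mean only through the group where it was high and had to differ. It is 1 of the 5 counted as rising, and its test is not given.

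The genes named TORTIFOLIA1, after a protein that in Arabidopsis binds cortical microtubules and keeps organs from twisting, did not move together. There were 3 tested, of which the one on chromosome 7 was low and not called in any comparison (2.03, 1.54 and 2.43 FPKM in WT). On chromosome 3 the level was 47.8, 48.5 and 48.2 FPKM in WT, 32.3, 38.8 and 33 FPKM in the LBD40 knockout and 64.8, 51.9 and 49.7 FPKM in the WRKY37 knockout. On chromosome 5 it was 28.2, 22.7 and 22.4 FPKM, 40.5, 45.3 and 30 FPKM and 23.6, 16.5 and 19.5 FPKM in the same order of groups. The first fell in the LBD40 knockout (log2 change -0.47, SE 0.12, adjusted p 0.0156; without LBD40 replicate 1, adjusted p 0.0608), and the second rose (log2 change 0.63, SE 0.18, adjusted p 0.0216; without WT replicate 2 or 3 or LBD40 replicate 1 or 2, adjusted p 0.0695 to 0.087). Between the knockouts the genes on chromosomes 3 and 5 differed, the first with a log2 change -0.66, SE 0.12, adjusted p 0.00541, the second with a log2 change 0.92, SE 0.18, adjusted p 0.00639.

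Microtubule-associated protein 70 on chromosome 1, of a plant family that lines cortical microtubules, was the single member of the group called in the WRKY37 knockout. It stood at 25.9, 25.1 and 22.8 FPKM there, 16.2, 19.7 and 16.6 FPKM in WT and 19.3, 23.9 and 23.3 FPKM in the LBD40 knockout (log2 change 0.47, SE 0.13, adjusted p 0.0462). The WRKY37 libraries were all above WT, but the call rested close to the threshold and ended in 7 of the 9 fits that left out a library (adjusted p 0.0508 to 0.165), all except those without WT replicate 2 or WRKY37 replicate 3. The 65-kDa family, whose members bundle microtubules, had its highest level in a gene on chromosome 7 that was not called (36.1, 35.3 and 39.7 FPKM in WT, 47.9, 45.4 and 45.9 FPKM in the LBD40 knockout).

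Kinesins are motors that walk along microtubules. Genes whose descriptions name kinesin formed the largest group, with 39 of 79 listed genes tested. The group also holds genes described as kinesin light chains, so its counts and sums are not those of motors alone. In the LBD40 knockout 8 rose, 4 fell and 27 were not called, with a median log2 change of 0.23. That is 30.8% called (20.5% higher), beside 37.2% of all genes (18.0% higher). The 8 became 4 without WT replicate 1 or LBD40 replicate 1, and 5 without WT replicate 2 or 3 or LBD40 replicate 2. The 4 became 1 without WT replicate 3 or LBD40 replicate 1. Kinesin-related protein 11 on chromosome 10 stood at 6.02, 6.77 and 5.81 FPKM in WT, 11.4, 15.8 and 14.7 FPKM in the LBD40 knockout and 14.8, 13 and 7.49 FPKM in the WRKY37 knockout. No library of either knockout was within the WT range. It rose 2.25-fold in the LBD40 knockout (log2 change 1.05, SE 0.22, adjusted p 0.00597) and was not called in the WRKY37 knockout (log2 change 0.78, SE 0.22, adjusted p 0.0566).

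A gene described as kinesin on chromosome 6 was high in the LBD40 knockout alone, at 2.97, 2.86 and 3.27 FPKM in WT, 6.03, 7.35 and 5.73 FPKM in the LBD40 knockout and 3.82, 3.03 and 2.16 FPKM in the WRKY37 knockout. It was called against WT (log2 change 0.86, SE 0.19, adjusted p 0.00686) and against the WRKY37 knockout (log2 change 0.9, SE 0.19, adjusted p 0.0088). The strongest fall was in a kinesin-like gene, copy 2 on chromosome 8, with 6.4, 7.45 and 7.58 FPKM in WT, 1.92, 3.29 and 2.83 FPKM in the LBD40 knockout and 2.36, 5.15 and 4.7 FPKM in the WRKY37 knockout. WT was 2.67 times higher than the LBD40 knockout (log2 change -1.16, SE 0.25, adjusted p 0.00584).

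Copy 1 on chromosome 12 set the knockouts apart, at 1.67, 1.93 and 1.98 FPKM in the LBD40 knockout and 5, 7.3 and 4.54 FPKM in the WRKY37 knockout, with 3.09, 3.65 and 4.78 FPKM in WT. The LBD40 libraries were below all others (log2 change -1.19, SE 0.21, adjusted p 0.00385 between the knockouts). Against WT it fell in the LBD40 knockout (log2 change -0.75, SE 0.21, adjusted p 0.0187), a call that ended without WT replicate 3 (adjusted p 0.0725) or LBD40 replicate 1 (adjusted p 0.0632). The kinesin gene with the highest level, kinesin light chain-like on chromosome 8, stood at 76, 77.2 and 69.2 FPKM in WT and 85.4, 95.5 and 87.2 FPKM in the LBD40 knockout. Light chains link the motor to its cargo in animals. Its small rise (log2 change 0.27, SE 0.09, adjusted p 0.045) lost its call when any 1 WT or LBD40 library was left out (adjusted p 0.0746 to 0.167).

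In the WRKY37 knockout 3 kinesins rose and 0 fell, 7.69% of those tested beside 9.38% of all genes. Without WT replicate 1, 0 rose, and without WRKY37 replicate 3, 8 did. Kinesin-like calmodulin-binding protein on chromosome 12, which in Arabidopsis is a motor toward the minus end that calcium and calmodulin switch off, stood at 1.91, 1.89 and 2.25 FPKM in WT, 4.26, 4.8 and 3.35 FPKM in the LBD40 knockout and 15.9, 4.11 and 16 FPKM in the WRKY37 knockout. WRKY37 replicates 1 and 3 were far above every other library and replicate 2 lay within the range of the LBD40 knockout. The rise (log2 change 1.92, SE 0.40, adjusted p 0.0151) was the largest log2 change of any called member in that knockout, and its call ended without WT replicate 1 (adjusted p 0.0539) or WRKY37 replicate 1 (adjusted p 0.0526). Kinesin-4 on chromosome 6, of a family known in Arabidopsis for its part in cell wall deposition, stood at 1.46, 1.54 and 1.93 FPKM in WT, 1.87, 1.92 and 1.39 FPKM in the LBD40 knockout and 3.66, 5.24 and 3.68 FPKM in the WRKY37 knockout. Only the WRKY37 libraries stood above WT (log2 change 0.96, SE 0.20, adjusted p 0.0147; without WT replicate 1, adjusted p 0.0615), and the knockouts differed from each other (log2 change -0.92, SE 0.20, adjusted p 0.00925).

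The third kinesin called in the WRKY37 knockout, KINESIN LIGHT CHAIN-RELATED 1-like on chromosome 8, stood at 20.6, 26.5 and 32.4 FPKM in WT and 36.4, 71.4 and 78.1 FPKM in the WRKY37 knockout. It passed the threshold narrowly (log2 change 1.14, SE 0.32, adjusted p 0.0497), and the call ended without any 1 of the WT libraries, LBD40 replicate 1 or WRKY37 replicate 2 or 3 (adjusted p 0.0734 to 0.164). Summed kinesin levels were 361, 386 and 379 FPKM in WT, 408, 469.6 and 425 FPKM in the LBD40 knockout and 462, 533 and 432 FPKM in the WRKY37 knockout, so every knockout library was above every WT library.

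The genes described as NACK1 or as phragmoplast orienting kinesin, named for work on the phragmoplast, the scaffold of the new cell plate, were 4 and too low to test. NACK1 on chromosome 4 had 0.75 to 1.24 FPKM over the 9 libraries, and NACK1 on chromosome 7 had 0.02 to 0.49 FPKM. Phragmoplast orienting kinesin-1 on chromosome 11 had 0.44 to 1.01 FPKM, and kinesin 2 of that name, on chromosome 1, 0.19 to 0.87 FPKM. Other markers of dividing cells were 19 listed genes, of which 16 were tested. In the LBD40 knockout 0 rose and 6 fell (median log2 change -0.37). So 37.5% were called, all lower, while over all genes 37.2% were called, with 19.2% lower. The 6 were MAD1, Aurora-3 and subunits of the anaphase-promoting complex. In the WRKY37 knockout 0 were called (median -0.08), beside 9.38% of all genes. The summed level of the 19 genes was 287 to 292 FPKM in WT, 244 to 299.9 FPKM in the LBD40 knockout and 237 to 339.96 FPKM in the WRKY37 knockout. Among the B-type cyclins, Cyclin-B1-2 on chromosome 2 stood at 91.8 to 145 FPKM and cyclin B1 on chromosome 6 at 2.68 to 6.27 FPKM over the 9 libraries, and neither was called against WT. The other two were too low to test, with cyclin B2 on chromosome 2 at 0 to 2.13 FPKM and the gene on chromosome 10 at 0 to 1.34 FPKM. KNOLLE, a syntaxin of the cell plate that was also too low to test, stood at 0.05, 0 and 0.32 FPKM in WT. It had 0.93, 1.2 and 1.71 FPKM in the LBD40 knockout and 1.41, 0.53 and 0.12 FPKM in the WRKY37 knockout. The cyclin on chromosome 10 had 0.2, 0 and 0.21 FPKM, 0.69, 0.99 and 1.34 FPKM and 1.31, 0.69 and 0.36 FPKM in the same order. In both genes every LBD40 library was above every WT library, while for cyclin B2 these groups overlapped. Cyclin B2 was at 0 in WT replicates 1 and 2 and WRKY37 replicate 3, and both KNOLLE and the cyclin on chromosome 10 were at 0 in WT replicate 2. Their part in the results was not tested.

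Actin itself was dominated by 1 gene. The actin gene on chromosome 3 stood at 1267, 1168 and 1248 FPKM in WT, 983, 1059 and 991 FPKM in the LBD40 knockout and 1167, 1151 and 1230.4 FPKM in the WRKY37 knockout. It made up 90.7% to 92.3% of the summed level of the genes counted as actin in WT, 90.9% to 93.3% in the WRKY37 knockout, but 84.6% to 85.5% in the LBD40 knockout. In the LBD40 knockout it fell slightly (log2 change -0.28, SE 0.09, adjusted p 0.0357), with all 3 libraries below WT, but the call ended when any 1 WT or LBD40 library was left out (adjusted p 0.0578 to 0.123). Not counted as actin was the gene described as actin T1-like protein on chromosome 9, placed with the other actin-binding proteins. Its mean was 139 FPKM over WRKY37 replicates 1 and 2. By limma it rose in the LBD40 knockout (log2 change 0.34, adjusted p 0.0307). That call ended without WT replicate 2 or 3 or LBD40 replicate 1 or 3 (adjusted p 0.059 to 0.117).

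Some of the lesser actin genes rose in the LBD40 knockout. Of the 6 tested actin genes (19 listed) 3 rose and 1 fell (66.7% called, beside 37.2% of all genes), with a median log2 change of 0.37. The gene numbered copy 1 on chromosome 4 stood at 57.7, 66.7 and 79.5 FPKM in WT, 108, 124 and 107 FPKM in the LBD40 knockout and 61, 48.7 and 42.7 FPKM in the WRKY37 knockout. The LBD40 libraries were above all others, by 1.66-fold over WT (log2 change 0.73, SE 0.15, adjusted p 0.00573) and 2.22-fold over the WRKY37 knockout (log2 change 1.15, SE 0.15, adjusted p 0.00121). Another, copy 1 on chromosome 10, went from 6.02, 10.1 and 6.3 FPKM in WT to 15.1, 16.6 and 22.2 FPKM in the LBD40 knockout (log2 change 1.18, SE 0.22, adjusted p 0.00288). The gene on chromosome 5 went from 4.46, 5.79 and 3.94 FPKM to 9.05, 8.99 and 11 FPKM (log2 change 0.91, SE 0.17, adjusted p 0.00314). Actin genes too are near-identical copies, with the same limit as for tubulin. No actin gene was called in the WRKY37 knockout; on the unadjusted scale the lowest p belonged to the gene on chromosome 7 (12.2, 13.7 and 12.7 FPKM in WT, 9, 5.52 and 9.58 FPKM in the WRKY37 knockout, adjusted p 0.0593).

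**Figure D3:**
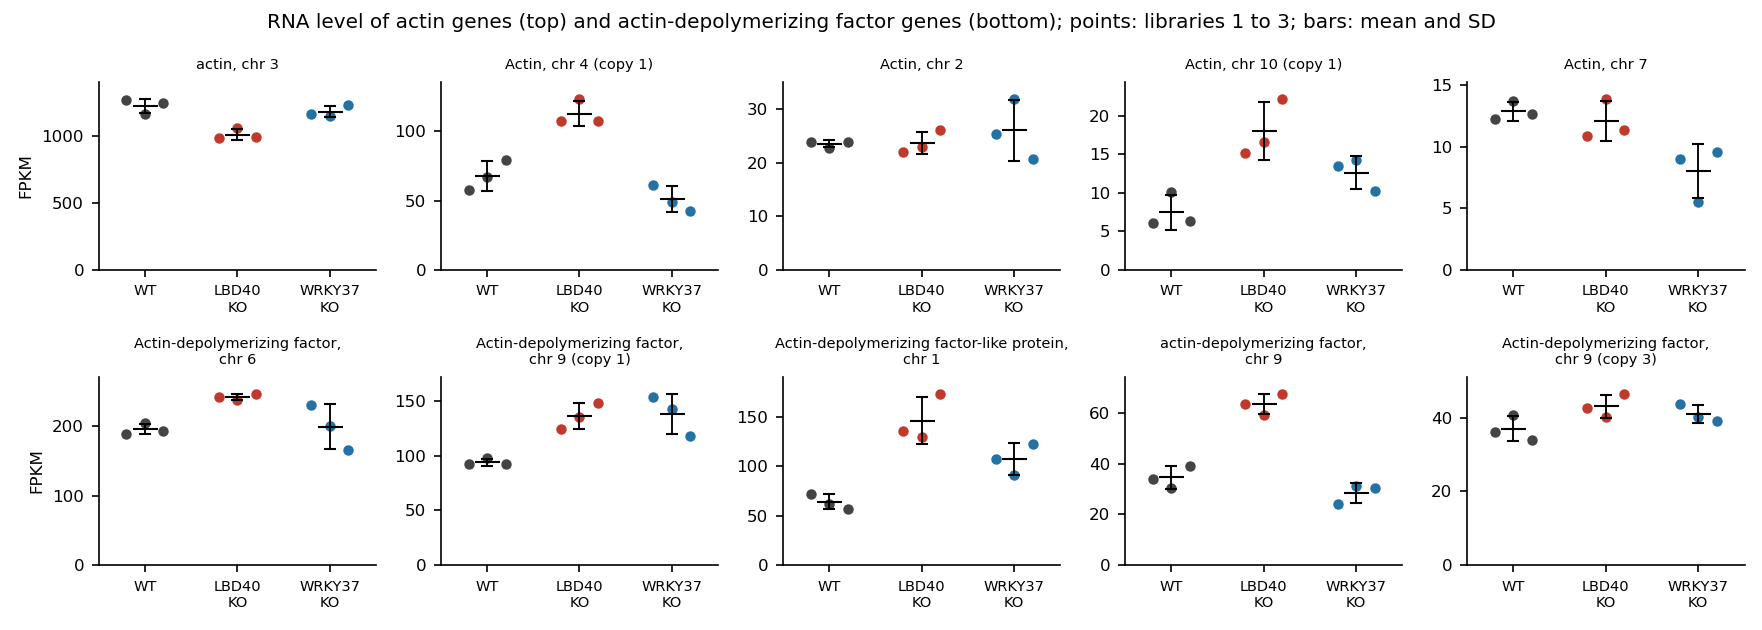
RNA level in FPKM (y axis, linear from 0) of 5 genes counted as actin (top) and 5 actin-depolymerizing factor genes (bottom), those with the highest means, in WT, the LBD40 knockout and the WRKY37 knockout. The actin T1-like gene on chromosome 9 is not among those counted as actin. Points are libraries 1 to 3 from left to right, and bars give the mean and SD (n = 3). The dominant actin gene on chromosome 3 is lower in the LBD40 knockout, whereas actin copy 1 on chromosome 4 and, of the actin-depolymerizing factor genes, the one on chromosome 1 and copy 1 and the lower-case gene on chromosome 9 are higher; copy 3 on chromosome 9 overlaps WT.

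Actin-depolymerizing factors, which sever filaments and free subunits from their ends, rose in 3 of 6 tested genes in the LBD40 knockout and fell in 0, of 10 listed, with a median log2 change of 0.42. The called share was 50%, beside 37.2% of all genes. The factor-like gene on chromosome 1 stood at 72.3, 62.2 and 57.2 FPKM in WT, 136, 129 and 173 FPKM in the LBD40 knockout and 107, 90.7 and 123 FPKM in the WRKY37 knockout. The groups did not overlap. The rise was 2.29-fold in the LBD40 knockout (log2 change 1.18, SE 0.15, adjusted p 0.000645) and 1.67-fold in the WRKY37 knockout (log2 change 0.73, SE 0.15, adjusted p 0.0157; without WT replicate 3, adjusted p 0.0648).

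Copy 1 on chromosome 9 rose in both knockouts to about the same level, from 92, 97.9 and 92.1 FPKM in WT to 124, 135 and 148 FPKM in the LBD40 knockout (log2 change 0.52, SE 0.12, adjusted p 0.00769) and 154, 142 and 118 FPKM in the WRKY37 knockout (log2 change 0.54, SE 0.12, adjusted p 0.0198). The WRKY37 call ended without WT replicate 1 or 3 or WRKY37 replicate 1 or 2 (adjusted p 0.0508 to 0.075). Another gene on that chromosome, written in lower case in the table, behaved differently in the 2 knockouts: it stood at 34.1, 30.4 and 39.2 FPKM in WT, 63.5, 59.4 and 67.5 FPKM in the LBD40 knockout and 23.9, 31.2 and 30.2 FPKM in the WRKY37 knockout. Only the LBD40 libraries were above WT (log2 change 0.86, SE 0.13, adjusted p 0.00143), and they were 2.23-fold above the WRKY37 knockout (log2 change 1.14, SE 0.13, adjusted p 0.000592). The most abundant factor, on chromosome 6, was not called (196 ± 7.47 FPKM in WT and 242 ± 4.49 FPKM in the LBD40 knockout, mean ± SD, n = 3). Summed, the factors stood at 429, 440.1 and 421 FPKM in WT, 613, 609 and 689 FPKM in the LBD40 knockout and 565, 509.6 and 480.0 FPKM in the WRKY37 knockout, with no overlap between the 3 groups.

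Profilins bind free actin subunits. Of 5 tested genes (7 listed) 1 rose in the LBD40 knockout, 20% called beside 37.2% of all genes. It was copy 1 on chromosome 12, at 107, 129 and 109 FPKM in WT, 151, 157 and 173 FPKM in the LBD40 knockout and 125, 127 and 103 FPKM in the WRKY37 knockout (log2 change 0.48, SE 0.12, adjusted p 0.0114 for LBD40 against WT). All its LBD40 libraries were above all others. The most abundant profilin, on chromosome 11, had 209, 237 and 215 FPKM in WT and 253, 261 and 351 FPKM in the LBD40 knockout and was not called (adjusted p 0.0725).

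Actin-related proteins include the Arp2/3 complex, which starts branched filaments, and nuclear proteins that work in chromatin remodelling. Of 13 tested genes (15 listed) 2 rose and 2 fell in the LBD40 knockout (30.8% called, beside 37.2% of all genes). Without any 1 WT library or LBD40 replicate 1 or 2 only 1 fell. Arp2/3 complex subunit 3 on chromosome 7 stood at 39.1, 38.1 and 36.8 FPKM in WT, 21.5, 22 and 20.8 FPKM in the LBD40 knockout and 28.1, 36.1 and 33 FPKM in the WRKY37 knockout. The LBD40 libraries were tightly grouped below all others (log2 change -0.8, SE 0.11, adjusted p 0.000934 against WT and log2 change -0.57, SE 0.11, adjusted p 0.00693 against the WRKY37 knockout).

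The 2 genes of the group that rose belong to the same complex. Subunit 4 on chromosome 12 went from 11.1, 9.88 and 10.2 FPKM in WT to 16.2, 13.9 and 16.6 FPKM in the LBD40 knockout (log2 change 0.54, SE 0.16, adjusted p 0.0268). A subunit without a number on chromosome 5 went from 13, 15.5 and 16.1 FPKM to 19.9, 20.7 and 21.9 FPKM (log2 change 0.46, SE 0.13, adjusted p 0.0217). So the subunits of 1 complex did not move together, although both rises ended in some fits without a library: for subunit 4 without any WT library or LBD40 replicate 1 or 3 (adjusted p 0.0526 to 0.0834), and for the other without WT replicate 1 or LBD40 replicate 2 or 3 (adjusted p 0.0636 to 0.0886). A gene described as actin protein 2/3 complex subunit-like, on chromosome 11, was counted with the other actin-binding proteins instead. By limma it fell in the LBD40 knockout (log2 change -0.49, adjusted p 0.0466). That call ended without any 1 WT library, LBD40 replicate 1 or 2 or WRKY37 replicate 1 (adjusted p 0.0572 to 0.157).

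Formins start and lengthen unbranched filaments. Of 15 tested genes (25 listed) 1 rose and 3 fell in the LBD40 knockout (26.7% called, beside 37.2% of all genes), with a median log2 change of 0.02. Copy 1 on chromosome 7 stood at 23.5, 25.5 and 22.3 FPKM in WT, 9.17, 10.4 and 9.41 FPKM in the LBD40 knockout and 11.6, 15.2 and 15.6 FPKM in the WRKY37 knockout. The groups did not overlap, and WT was 2.45 times the LBD40 level (log2 change -1.21, SE 0.14, adjusted p 0.000382) and 1.68 times the WRKY37 level (log2 change -0.72, SE 0.14, adjusted p 0.0107). Of the 12 members called in the WRKY37 knockout it was the single one whose call held in every alternative that was run.

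Formin-like protein 3 on chromosome 5 and copy 2 on chromosome 8 fell in the LBD40 knockout. The first stood at 22.8, 26.4 and 25.6 FPKM in WT, 13, 15.2 and 16.4 FPKM in the LBD40 knockout and 23, 26.6 and 18.9 FPKM in the WRKY37 knockout (log2 change -0.71, SE 0.15, adjusted p 0.00506 for LBD40 against WT). The second stood at 23, 30.5 and 24.9 FPKM, 15.4, 16.9 and 17.3 FPKM and 23, 22.8 and 23.2 FPKM in the same order (log2 change -0.62, SE 0.12, adjusted p 0.00418). In both, the WRKY37 libraries overlapped WT and lay above all LBD40 libraries. A low gene, copy 2 on chromosome 12, rose from 1.24, 1.51 and 1.58 FPKM to 4, 3.51 and 2.61 FPKM (log2 change 0.83, SE 0.22, adjusted p 0.0166; without WT replicate 1 or LBD40 replicate 1 or 2, adjusted p 0.0567 to 0.0682).

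Villins cap and bundle filaments. Of 4 tested genes (11 listed) 1 rose and 1 fell in the LBD40 knockout (50% called, beside 37.2% of all genes). Without any 1 WT library, LBD40 replicate 1 or 2 or WRKY37 replicate 1, 0 fell. Copy 2 on chromosome 10 stood at 1.09, 1.19 and 1.44 FPKM in WT, 4.69, 6.37 and 3.36 FPKM in the LBD40 knockout and 1.17, 1.79 and 0.93 FPKM in the WRKY37 knockout. The LBD40 libraries were all above the other 6, 3.88-fold over WT (log2 change 1.34, SE 0.24, adjusted p 0.00264) and 3.71-fold over the WRKY37 knockout (log2 change 1.32, SE 0.24, adjusted p 0.00459). The villin with the highest level, on chromosome 4, was not called (36.3 ± 2.16 FPKM in WT and 40.8 ± 4.11 FPKM in the LBD40 knockout, mean ± SD, n = 3).

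Under myosin the descriptions gather the motors of actin filaments, proteins that bind myosins, and coiled-coil proteins that automated naming likened to animal myosin, paramyosin or tropomyosin; the descriptions do not tell how many are motors. Of 37 tested genes (60 listed) 5 rose and 9 fell in the LBD40 knockout, with a median log2 change of -0.18, and 3 rose without WT replicate 1 or LBD40 replicate 3. With all 9 libraries 37.8% were called, beside 37.2% of all genes. The most abundant, myosin heavy chain-like protein on chromosome 8, stood at 197, 174 and 169 FPKM in WT, 95.5, 95.1 and 102 FPKM in the LBD40 knockout and 95.2, 131 and 121 FPKM in the WRKY37 knockout. All 6 knockout libraries were below WT (log2 change -0.87, SE 0.13, adjusted p 0.000997 for LBD40 and log2 change -0.64, SE 0.13, adjusted p 0.0123 for WRKY37; the latter without WT replicate 1, adjusted p 0.0573). A gene of that description on chromosome 1 also fell in both, from 17.1, 18.6 and 17.6 FPKM in WT to 10.6, 10.6 and 13.4 FPKM in the LBD40 knockout (log2 change -0.59, SE 0.13, adjusted p 0.00643) and 11.1, 12.7 and 11.5 FPKM in the WRKY37 knockout (log2 change -0.55, SE 0.13, adjusted p 0.0252). The second call ended without any 1 WT library or WRKY37 replicate 1 (adjusted p 0.0749 to 0.0795).

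Genes described as myosin itself went both ways. Myosin on chromosome 9 rose, with 14.5, 16.3 and 13.4 FPKM in WT, 25.9, 31.1 and 28.1 FPKM in the LBD40 knockout and 23, 21.4 and 17.4 FPKM in the WRKY37 knockout (log2 change 0.9, SE 0.14, adjusted p 0.00129 for LBD40 against WT). Copy 1 on chromosome 8 fell, with 22.8, 21.2 and 20.2 FPKM, 11.2, 11.7 and 11 FPKM and 15.2, 19.3 and 14.7 FPKM in the same order (log2 change -0.86, SE 0.13, adjusted p 0.00114). In both genes the 3 groups did not overlap and the WRKY37 knockout lay between the other groups. Myosin-17 on chromosome 1, which in Arabidopsis is a class XI motor of organelle traffic, was low and rose from 1.26, 1.5 and 0.96 FPKM in WT to 3.22, 4.26 and 2.86 FPKM in the LBD40 knockout (log2 change 0.98, SE 0.21, adjusted p 0.00582), with 1.41, 1.37 and 0.98 FPKM in the WRKY37 knockout.

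Myosin-binding protein 2, copy 2 on chromosome 12, of a family that ties myosins to vesicles in Arabidopsis, fell from 23.9, 25 and 21.5 FPKM in WT to 9.85, 11.9 and 14.5 FPKM in the LBD40 knockout (log2 change -0.92, SE 0.14, adjusted p 0.00143). The gene described as tropomyosin on chromosome 11 stood at 13.6, 15.4 and 15.5 FPKM in WT, 6.95, 6.48 and 7.31 FPKM in the LBD40 knockout and 11, 17.1 and 14.2 FPKM in the WRKY37 knockout. It was lower in the LBD40 knockout than in both other groups (log2 change -1.0, SE 0.16, adjusted p 0.00152 against WT and log2 change -0.91, SE 0.16, adjusted p 0.00376 against the WRKY37 knockout). One described as cardiac myosin heavy chain, on chromosome 1, showed the reverse, at 2.22, 2.95 and 4.13 FPKM in WT, 9.68, 9.86 and 8.03 FPKM in the LBD40 knockout and 3.3, 3.03 and 2.36 FPKM in the WRKY37 knockout (log2 change 1.33, SE 0.20, adjusted p 0.00122 against WT and log2 change 1.39, SE 0.20, adjusted p 0.00169 against the WRKY37 knockout). Summed over the group, levels were 730.0, 773 and 705 FPKM in WT, 577, 629.9 and 650.2 FPKM in the LBD40 knockout and 621, 745 and 633 FPKM in the WRKY37 knockout.

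Other actin-binding proteins were 14 tested genes of 23 listed, of which 3 rose and 2 fell in the LBD40 knockout (35.7% called, beside 37.2% of all genes). The 3 became 1 without LBD40 replicate 3. The 2 became 0 without WT replicate 1 or LBD40 replicate 1, and 1 without WT replicate 2 or 3, LBD40 replicate 2 or WRKY37 replicate 1. The putative actin cross-linking protein on chromosome 1 (a DUF569 protein) stood at 10.5, 7.66 and 6.79 FPKM in WT, 19.5, 28 and 24.5 FPKM in the LBD40 knockout and 12.3, 14.3 and 8.94 FPKM in the WRKY37 knockout. The LBD40 libraries lay above all others, 2.89-fold over WT (log2 change 1.43, SE 0.21, adjusted p 0.00105), the largest log2 change of any member called in this comparison. The 3 tested genes for subunits of the F-actin capping protein, which blocks filament ends, were not called, with 15.5 ± 2.2 FPKM in WT and 19.8 ± 1.9 FPKM in the LBD40 knockout for beta on chromosome 12 (mean ± SD, n = 3). The group also holds a SWI/SNF-related chromatin protein on chromosome 3 that the word actin brought in, and it fell (log2 change -0.53, SE 0.14, adjusted p 0.018; without WT replicate 1 or LBD40 replicate 1, adjusted p 0.0645 and 0.0699). The other gene that fell was the actin protein 2/3 complex subunit-like gene on chromosome 11. The actin T1-like gene on chromosome 9 was 1 of the 3 that rose.

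**Figure D4:**
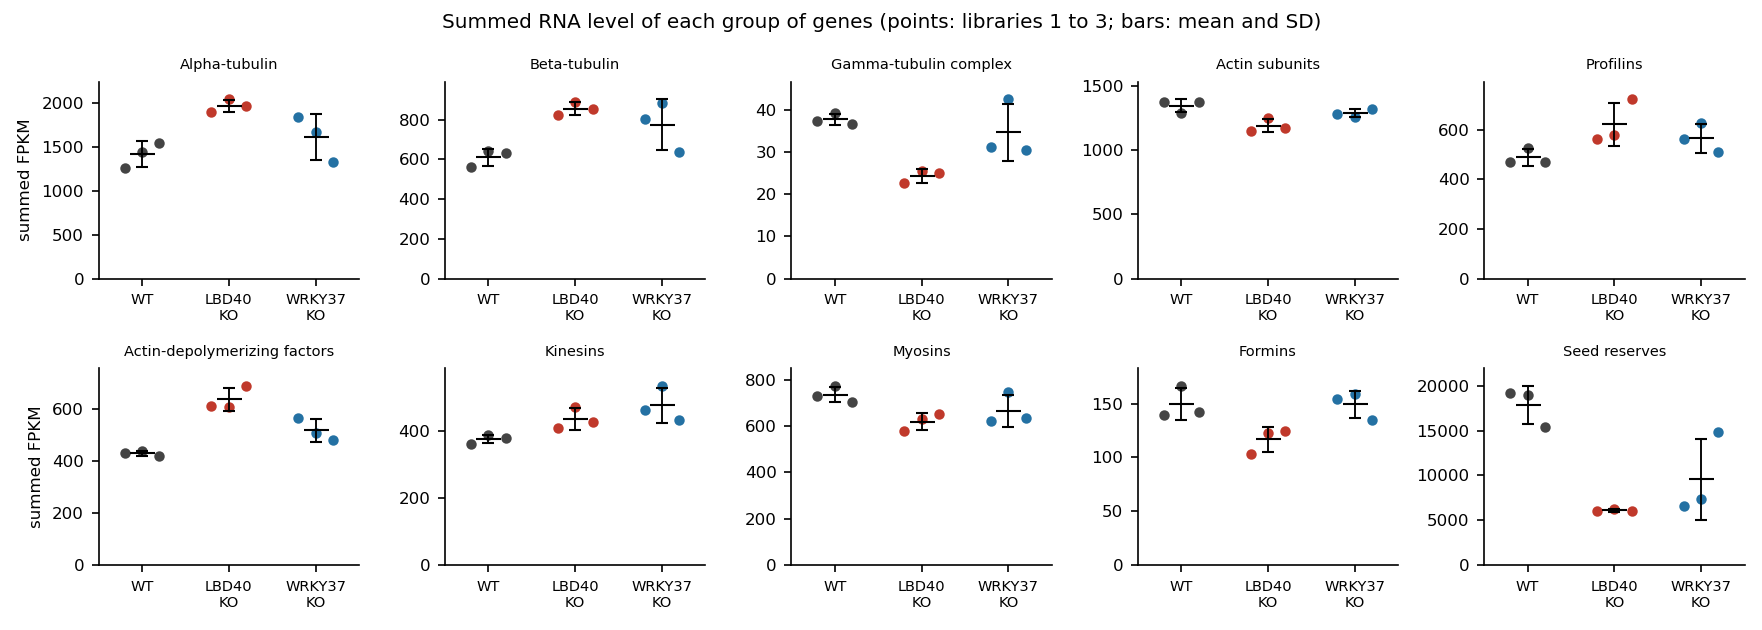
Summed RNA level in FPKM (y axis, linear from 0) of groups of cytoskeleton genes and of seed reserve genes, 1 panel a group, in WT, the LBD40 knockout and the WRKY37 knockout. Points are libraries 1 to 3 from left to right, and bars give the mean and SD (n = 3). Alpha- and beta-tubulin and the actin-depolymerizing factors are higher, and the gamma-tubulin complex lower, in every LBD40 library than in any WT library; WRKY37 replicate 3 has a seed reserve level near WT.

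Setting the knockouts side by side, both against the same 3 WT libraries, 6 members were called in both in the same direction, 3.21% of those tested, beside 5.63% of all tested genes. In opposite directions 0 members were called, beside 0.501% of all genes. Those that rose were the actin-depolymerizing factor-like gene on chromosome 1, copy 1 of that factor on chromosome 9 and beta-tubulin on chromosome 4. Those that fell were formin-like copy 1 on chromosome 7 and the myosin heavy chain-like genes on chromosomes 8 and 1. Since the comparisons share WT, their agreement is not independent of it. In the direct test between the knockouts, formin-like copy 1 on chromosome 7 was lower in the LBD40 knockout (log2 change -0.49, SE 0.14, adjusted p 0.0256), a call that ended without any 1 LBD40 library or WRKY37 replicate 2 or 3 (adjusted p 0.0541 to 0.0901), and the other 5 were not called. In 3 members, or 1.6%, the knockouts lay on opposite sides of all WT libraries and the difference between them was called, beside 2.43% of all genes.

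**Figure D5:**
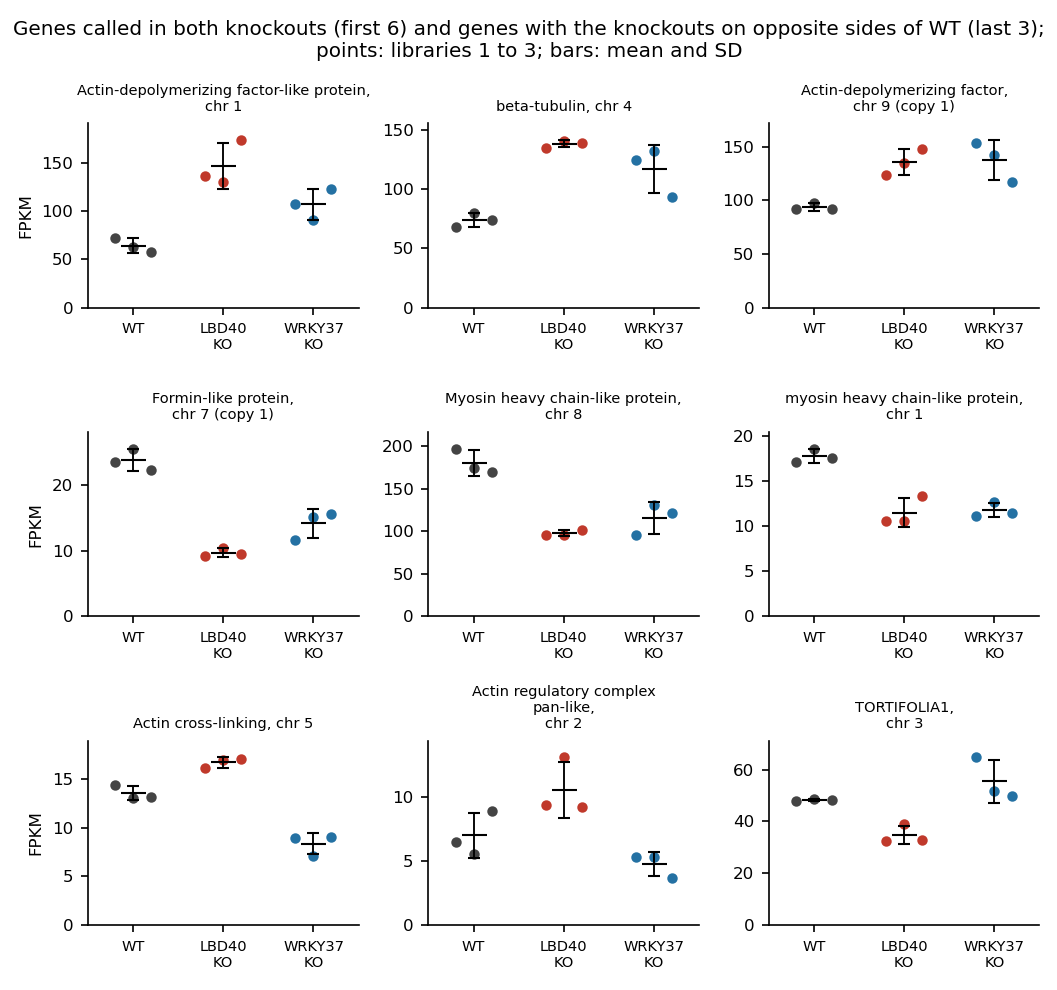
RNA level in FPKM (y axis, linear from 0) of the 6 cytoskeleton genes called in both knockouts (first 6 panels) and of 3 genes in which the knockouts lay on opposite sides of WT (last 3 panels). Points are libraries 1 to 3 from left to right, and bars give the mean and SD (n = 3). The first 3 panels are higher and the next 3 lower in all 6 knockout libraries than in WT.

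The WRKY37 result turned on single libraries. By role, 2 tubulin subunits, 3 kinesins, 2 actin-depolymerizing factors and 1 microtubule-associated protein rose, and 2 myosins, 1 formin and 1 other actin-binding protein fell. Together these were 6.42% of the tested members, beside 9.38% of all genes. Leaving out WRKY37 replicate 3, the library near WT in seed reserve transcripts, gave 28 higher and 5 lower, 17.6% of the members beside 14.4% of all genes (9.31% higher and 5.13% lower). Of the 28, 6 were tubulin subunits, 8 kinesins, 5 microtubule-associated proteins, 4 myosins and 2 actin-depolymerizing factors. Kinesin-related protein 11 on chromosome 10 then had a log2 change of 1.05 (SE 0.16, adjusted p 0.00397), and the microtubule-associated protein gene on chromosome 7 of 1.15 (SE 0.17, adjusted p 0.00359). Beta-tubulin on chromosome 4 stood at 0.79 (SE 0.10, adjusted p 0.00178). Replicate 3 was singled out from these same data, so the values without it are no separate support for these rises. Leaving out WT replicate 1 instead left 1.07% of the members called, beside 4.42% of all genes: 1 higher, the actin-depolymerizing factor-like gene on chromosome 1, and 1 lower, formin-like copy 1 on chromosome 7. Leaving out WT replicate 3 gave 3 higher and 3 lower, with 5.26% of all genes called. Leaving out WRKY37 replicate 1 gave 5 higher and 4 lower, with 6.35% of all genes called, and leaving out its replicate 2 gave 5 higher and 6 lower, with 7.44%. With 2 libraries in a group, the fit lends them the spread of the others.

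Genes of the cytoskeleton or tied to it, whose descriptions the rule did not catch, were listed by other names (katanin, TPX2, WVD2, Rop exchange factors, COBRA-like and others). Not all are parts of the cytoskeleton, such as the COBRA-like genes, so the shares are those of a wider list. Of 170 matches 98 were tested. In the LBD40 knockout 30 rose and 10 fell, 40.8% beside 37.2% of all genes, with a median log2 change of 0.18. By direction these were 30.6% higher and 10.2% lower, beside 18.0% higher and 19.2% lower over all genes. Without 12 matches that share only letters, such as decapping enzymes (5 tested), 93 were left, of which 30 rose and 8 fell (40.9% called, 32.3% higher and 8.60% lower). In the WRKY37 knockout 4 of these 93 rose and 2 fell, 6.45% beside 9.38% of all genes. Of the 30 that rose 2, and of those that fell 1 in each knockout, reached the minimum mean only through the group where they were high. Rop exchange factors switch on the small GTPases that steer actin and microtubules in plant cells. Rop guanine nucleotide exchange factor 12 on chromosome 6 stood at 2.46, 3.41 and 3.3 FPKM in WT, 13.8, 15 and 15 FPKM in the LBD40 knockout and 4.16, 5.53 and 4.76 FPKM in the WRKY37 knockout. It rose 4.77-fold in the LBD40 knockout (log2 change 1.95, SE 0.16, adjusted p 8.8e-05), and no group overlapped another.

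Rop exchange factor 1 on chromosome 4 rose in both knockouts, from 6.53, 6.59 and 6.2 FPKM in WT to 10.9, 11.4 and 10.8 FPKM in the LBD40 knockout (log2 change 0.69, SE 0.15, adjusted p 0.00544) and 14.2, 13.3 and 9.95 FPKM in the WRKY37 knockout (log2 change 0.84, SE 0.15, adjusted p 0.00676). WVD2-like 1 on chromosome 10, named for an Arabidopsis protein that bundles microtubules, rose in both as well, with 5.6, 6.38 and 6.25 FPKM in WT, 14.4, 16.6 and 15.3 FPKM in the LBD40 knockout (log2 change 1.22, SE 0.14, adjusted p 0.00043) and 11.1, 11.1 and 8.46 FPKM in the WRKY37 knockout (log2 change 0.66, SE 0.14, adjusted p 0.0179). COBRA-like proteins sit at the outer face of the membrane, where they help orient cellulose. Copy 1 on chromosome 1 stood at 47.6, 72.5 and 55.2 FPKM in WT, 134, 122 and 128 FPKM in the LBD40 knockout and 49.1, 37.5 and 60.3 FPKM in the WRKY37 knockout (log2 change 1.14, SE 0.19, adjusted p 0.00173 for LBD40 against WT). A dynein light chain gene, copy 2 on chromosome 3, stood at 3.93, 5.57 and 4.68 FPKM in WT, 0.74, 0.55 and 0.51 FPKM in the LBD40 knockout and 0.1, 0.58 and 0.48 FPKM in the WRKY37 knockout. It is the gene that reached the minimum mean only through WT, since the 6 knockout libraries averaged 0.493 FPKM, so it had to differ and its tests are not given.

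Transcripts of other tissues also moved with the groups, and their part in the results was not tested. Of the 31 tested seed reserve genes 7 rose and 16 fell in the LBD40 knockout, and 5 rose and 10 fell in the WRKY37 knockout. These were 74.2% and 48.4% called, beside 37.2% and 9.38% of all genes. Of 52 tested genes of green tissue (chlorophyll-binding and photosystem proteins, 185 listed) 13 rose and 1 fell in the LBD40 knockout, 26.9% called beside 37.2% of all genes. In the WRKY37 knockout 2 rose and 8 fell, 19.2% beside 9.38% of all genes. Between the knockouts 32 were higher and 3 lower in the LBD40 knockout, 67.3% beside 27.0% of all genes. The summed level of the green tissue list was 743 to 896 FPKM in the LBD40 knockout, 450.3 to 838 FPKM in WT and 308 to 468 FPKM in the WRKY37 knockout. Mannanases, enzymes that soften the endosperm cap in front of the root tip, were 12 tested genes of 16 listed, of which 6 rose and 2 fell in the LBD40 knockout (66.7% called, beside 37.2% of all genes). In the WRKY37 knockout 4 of the mannanases rose and 0 fell (33.3% called, beside 9.38% of all genes). Between the knockouts 3 were higher and 3 lower in the LBD40 knockout (50% called, beside 27.0% of all genes). Their summed level was 191 to 234 FPKM in WT, 246 to 341 FPKM in the LBD40 knockout and 292 to 449.6 FPKM in the WRKY37 knockout.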

How the data were processed

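RNA from whole seeds was extracted with an RNeasy kit and made into SMARTER mRNA-seq libraries, per the labels' protocols. The submitters' processing notes name TopHat2, HISAT2, StringTie and Cufflinks, without order or role; versions, the genome build, the annotation and whether counting used strand are all not given in the sources used here, nor is any filter. Values deposited by the authors have 2 decimals and were taken as FPKM; no header states the unit, and TPM over a larger gene set would look alike. The deposited column of WT replicate 1 runs into the gene names; it was read by character position and holds the same quantity. Reads could not be recovered from the values, so the depth is unknown and counting error has no interval here.

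Values were put on the log2(FPKM + 1) scale, which understates changes of low genes, and the genes averaging 1 or more across all 9 libraries were fitted with limma 3.58.1 (R 4.3.3, trend, genotype as the only term, all 9 libraries in 1 fit). P-values were adjusted by Benjamini-Hochberg over the 18346 genes. Fold values are ratios of mean FPKM. Plots and summaries used Python 3.11.15 with pandas 2.3.3, numpy 2.4.6 and matplotlib 3.10.9, and the fit was tested on simulated data.

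Members, roles and lists were text searches of descriptions, which automated similarity search assigned, and were chosen with earlier results of these data known. Gene IDs are cut to 8 characters, so genes are named by description and chromosome, with copy numbers in table order. The rule for named genes took, per comparison and role, up to 3 higher and 3 lower called members with the smallest adjusted p, the member with the highest level in each role, up to 5 members called in both knockouts, and up to 4 called genes per comparison of the other cytoskeleton list. Not all genes so picked are described above. The sixth member called in both knockouts, the 65-kDa gene, tubulin alpha on chromosome 4, tubulin gamma, actin on chromosome 7, capping protein, NACK1, the phragmoplast orienting kinesins, TORTIFOLIA1 on chromosome 7 and the B-type cyclins were named after their values were seen. Alternatives were a pseudocount of 0.1, a minimum mean of 5, no minimum, quantile normalization, equal library totals, a fit of only the 2 groups in question, a block for the replicate number and leaving out each library.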

Additional observations from a re-analysis of the deposited data

Results flagged for a closer look

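In 3 members every LBD40 knockout library lay on one side of all WT libraries and every WRKY37 knockout library on the other, and the difference between the knockouts was itself called by limma (adjusted p, Benjamini-Hochberg over all tested genes). That is 1.6% of the tested members, beside 2.43% of all tested genes. Actin cross-linking on chromosome 5 stood at 14.4, 13.1 and 13.2 FPKM in WT, 16.1, 17 and 17.1 FPKM in the LBD40 knockout and 8.93, 7.13 and 9.1 FPKM in the WRKY37 knockout. The knockouts differed with a log2 change 0.92, SE 0.13, adjusted p 0.00128. Against WT it fell in the WRKY37 knockout (log2 change -0.64, SE 0.13, adjusted p 0.0126; without WT replicate 1, adjusted p 0.0616) and was not called in the LBD40 knockout (log2 change 0.29, SE 0.13, adjusted p 0.099).

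The actin cytoskeleton-regulatory complex pan-like gene on chromosome 2 stood at 6.49, 5.55 and 8.9 FPKM in WT, 9.33, 13.1 and 9.2 FPKM in the LBD40 knockout and 5.33, 5.27 and 3.68 FPKM in the WRKY37 knockout. It was not called against WT in either knockout, and the knockouts differed with a log2 change 1.0, SE 0.21, adjusted p 0.0083. In the TORTIFOLIA1 gene on chromosome 3 the direction was the reverse, with the LBD40 knockout below and the WRKY37 knockout above WT (log2 change -0.66, SE 0.12, adjusted p 0.00541 between the knockouts).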

How the results depend on the processing

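No named member changed direction under any alternative. Of the calls picked by the rule for named genes, not all of which are described above, 32 of 53 held for the LBD40 knockout against WT in every alternative that tested the gene. Between the knockouts 15 of 38 held, and for the WRKY37 knockout against WT 1 of 12. The 53 and the 38 include the RP/EB family member 1C gene on chromosome 3, which had to differ. Leaving out 1 library gave 23 to 45 members higher and 13 to 36 lower in the LBD40 knockout, 1 to 28 higher and 1 to 6 lower in the WRKY37 knockout, and 10 to 20 higher and 5 to 33 lower between the knockouts. In the WRKY37 knockout 16 members were higher with quantile normalization and 14 with equal library totals, 8 were lower without a filter on low values, and 2 were lower in a fit of only the 2 groups. In that order, these fits called 11.8%, 9.63%, 5.13% and 4.28% of the members, higher or lower. Over all genes they called 12.6%, 11.2%, 4.34% and 5.54%. A fit of only the 2 groups gave 13 higher and 10 lower between the knockouts, 12.3% of the members beside 18.7% of all genes. For the LBD40 knockout against WT it gave 48 higher and 37 lower, 45.5% of the members beside 45.3% of all genes. Quantile normalization gave 40 higher and 41 lower in the LBD40 knockout, 43.3% of the members beside 43.5% of all genes. The cause of these changes was not tested. For same-numbered libraries the correlations over genes of their deviations from the group means ran from -0.10 to 0.063, and 0 of 9 passed 0.1. No strong shared shift was seen, but such correlations cannot tell whether these libraries were prepared together. With the replicate block 31 members were higher and 23 lower in the LBD40 knockout, 6 and 3 in the WRKY37 knockout, and 13 and 20 between the knockouts. In that order these were 28.9%, 4.81% and 17.6% of the members, beside 32.9%, 6.56% and 22.4% of all genes. Depth is unknown, so for the 128 untested genes no limit can be given.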

Other observations

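The genes described as kinesin-like calmodulin-binding protein, looked at after their values were seen, were 4, of which 2 could be tested. The gene on chromosome 12 stood at 15.9, 4.11 and 16 FPKM in WRKY37 knockout replicates 1 to 3, and copy 1 on chromosome 10 at 3.25, 18.8 and 4.14 FPKM in the same libraries. So in replicate 2, where the first gene was low, the second was high. Their sum, with the other two genes at 0 to 0.21 FPKM, was 19.2, 23.0 and 20.2 FPKM in the WRKY37 knockout, 4.14, 5.54 and 4.61 FPKM in WT and 6.45, 6.15 and 5.63 FPKM in the LBD40 knockout. Within the WRKY37 knockout the sum thus varied less between libraries than either of the 2 tested genes alone. The sums did not overlap between groups, but WT and the LBD40 knockout nearly met. The highest WT sum was 5.54 FPKM and the lowest LBD40 sum 5.63 FPKM. The gene on chromosome 12 alone also lay lower in every WT library than in any knockout library. Its level in WRKY37 replicate 2 was within the range of the LBD40 knockout. The copy on chromosome 10 was not called by limma in the WRKY37 knockout (log2 change 1.03, SE 0.48, adjusted p 0.217). The sum was not tested, and how fragments were shared between these genes is not given in the sources used here.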
